A study of Arabidopsis thaliana with 5 samples.

Results

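The sites described here are the 215 places in the Arabidopsis thaliana genome at which the transcription factors SCL28 and AtSMOS1 were both detected in each of their 2 ChIP-Seq replicates. A site is a peak of SCL28 replicate 1 on chromosomes 1 to 5 that shared at least 1 bp with a peak in each of the other 3 ChIP lists, and 215 of the 488 SCL28 peaks of that list met this rule. Among the peaks of all 5 lists, 18951 lay on these chromosomes. The peaks used for different sites were always different peaks, and the 215 sites had 210 different nearest genes. The question was whether the proteins are enriched in the same order at the sites that they share, and at which sites 1 of them is enriched more than the other.

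SCL28 was immunoprecipitated from whole seedlings of an SCL28-GFP line (labelled E1M-GFP) and AtSMOS1 from whole seedlings of an AtSMOS1-GFP line (labelled SNOS1-GFP), with the same anti-GFP antibody and 2 biological replicates per line. All plants were of ecotype Col-0 and were given no treatment. According to the labels they grew on half-strength MS agar under long days, whereas the study's general methods name continuous light. Total chromatin of wild-type (WT) seedlings was the input, with 1 sample. AtSMOS1-GFP was driven by its own promoter. For SCL28-GFP the study names the RPS5A promoter, which is active in dividing cells, in its results and the SCL28 promoter in its methods, so the promoter of the line used is not settled here. A difference between the proteins therefore cannot be told apart from a difference between their transgenes. SCL28 had 488 peaks in replicate 1 and 396 in replicate 2, AtSMOS1 had 5438 and 6934, and the input had 5695. Lists of peaks hold no read counts per site. The study's reporting summary gives read totals per ChIP library, with the most uniquely mapped reads in SCL28 replicate 2. These totals did not enter the comparison.

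SCL28 is a GRAS family transcription factor whose transcript peaks at the G2 to M transition, and AtSMOS1 is an AP2-type transcription factor. The proteins bind each other, and loss of either makes leaf cells smaller. Known targets are the SIAMESE-RELATED (SMR) genes, which encode plant inhibitors of cyclin-dependent kinases (CDKs) that hold cells at G2 and favour endoreplication. From peaks of these same libraries the study derived a 12 bp DNA motif for the pair. A relaxed 10 bp form, nested in that motif, is used here and was searched as an exact match on both strands: a C, any base, a T, any base, GGAT, any base and a C. Its frequency at the shared sites is thus not independent of the motif's origin, but neither the motif nor position entered the choice of sites.

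The DNA under a few sites shows what these descriptions refer to. The sequences below were read from the RefSeq genome TAIR10.1 at TAIR10 positions, are written 5′ to 3′ in lower case, and have the 10 bp motif in capitals. The first set comes from sites at which SCL28 was enriched more, the next from SMR sites that were not called or had more AtSMOS1. The last comes from sites with more AtSMOS1 whose 200 bp around the SCL28 summit held no match, and there the stretch at the summit is shown. These are examples: sites with more SCL28 and no match, such as AT4G20430, and sites with more AtSMOS1 and a match, such as AT5G06540, also occurred.
SMR9, chr1:19042687-19042736, minus strand: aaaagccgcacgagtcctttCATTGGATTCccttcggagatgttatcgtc
AT3G55710, chr3:20673630-20673659, plus strand: atgatcctatCATAGGATTCctatgtaaag
LAC2, chr2:12524776-12524825, minus strand: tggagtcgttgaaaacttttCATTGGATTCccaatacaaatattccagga
AT3G10530 (the SMR1 site), chr3:3284371-3284420, plus strand: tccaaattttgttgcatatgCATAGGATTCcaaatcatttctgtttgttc
AT3G20900 (the SMR14 site), chr3:7325417-7325466, minus strand: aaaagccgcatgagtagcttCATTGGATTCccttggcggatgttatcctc
SMR2, chr1:2565527-2565576, plus strand: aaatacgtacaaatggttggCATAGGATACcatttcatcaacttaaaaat
WRKY22, chr4:525267-525316, plus strand: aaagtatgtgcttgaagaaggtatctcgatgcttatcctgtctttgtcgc
KCS9, chr2:7053054-7053103, plus strand: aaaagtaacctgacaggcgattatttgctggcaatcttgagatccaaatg
AtSMOS1 promoter (nearest gene EMB2654), chr2:17403306-17403355, plus strand: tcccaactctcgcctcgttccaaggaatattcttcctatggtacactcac
The windows at SMR9 and SMR14 had the same base at 42 of 50 positions (84%), whereas the other pairs of the 5 SMR windows with the motif had between 16 and 22 of 50 bases in common. These windows were aligned at the motif, which by itself fixes 7 of the shared bases.

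Peak names in the second replicate of each protein belong to the other protein; sample labels, not peak names, decided the protein here. At the shared sites, the ranks of the SCL28 lists had a Spearman correlation of 0.93 with each other (Pearson 0.94 on log2 fold enrichment, n = 215 sites), and those of the AtSMOS1 lists 0.72 (Pearson 0.81). Between an SCL28 and an AtSMOS1 list, Spearman's rho was 0.443 to 0.447 for the 4 possible pairs, and Pearson's r 0.52 to 0.55. The order of the sites was therefore much closer within a protein than between the proteins, also across the lists whose peak names are exchanged. Sites of 1 list share a library and all lists share the input as control, so these values are descriptions. Replicate 1 alone gave 0.446 and replicate 2 alone 0.447.

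Shared sites were enriched more than the median peak of each list, but they were spread over nearly the whole range of the lists. Their median fold enrichment, the ratio at the summit over the background estimated by the peak caller, was 5.57 and 5.66 for SCL28 in replicates 1 and 2, and 4.72 and 4.59 for AtSMOS1. Over all peaks of a list the medians were 4.00 and 4.50 for SCL28, and 3.65 and 3.34 for AtSMOS1. The 273 SCL28 replicate 1 peaks that are no shared site had a median of 3.42 (quartiles 3.002 to 4.13), against quartiles of 4.04 to 7.51 at the shared sites. When SCL28 replicate 1 peaks were divided into quartiles of enrichment, 14.05% of the lowest quartile, 28.0% and 50.8% of the next ones and 83.6% of the highest were shared sites, so that 17 and 35 of the 215 sites were in the lowest and the next quartile. The exact (Clopper-Pearson) 95% confidence interval (CI) was 8.40 to 21.5% for the lowest and 75.8 to 89.7% for the highest quartile. Such intervals cover counting error only. Because a shared site also needs a peak in SCL28 replicate 2, these shares mix recurrence of SCL28 peaks with overlap of AtSMOS1 peaks.

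**Figure D1:**
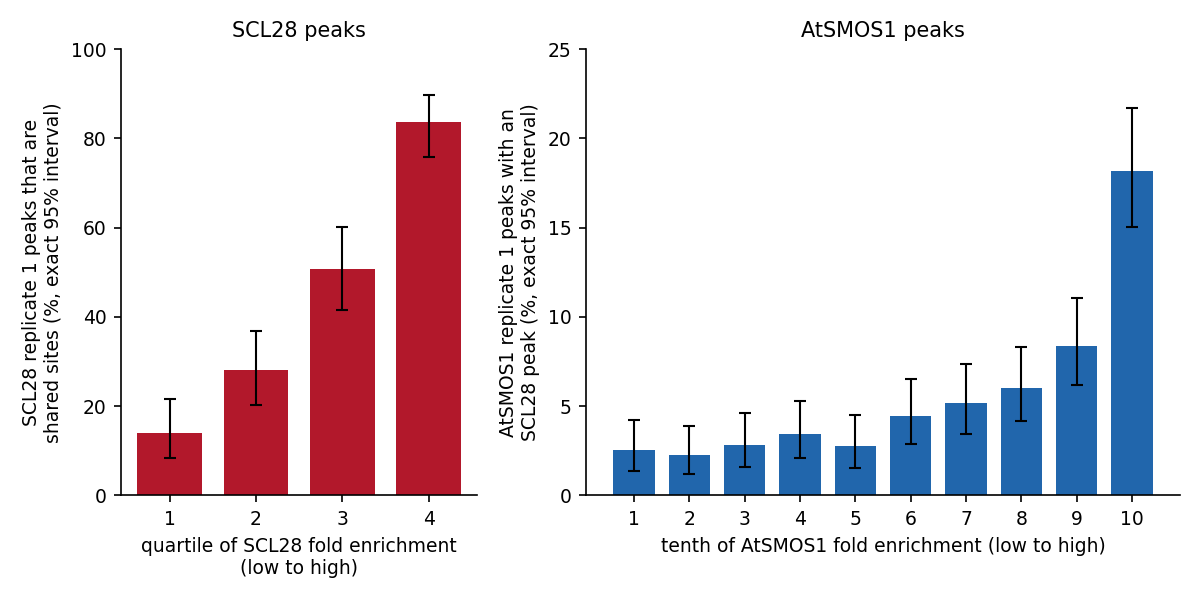
Share of SCL28 replicate 1 peaks that are shared sites (left panel in %, by quartile of SCL28 fold enrichment from low to high) and share of AtSMOS1 replicate 1 peaks that overlap an SCL28 replicate 1 peak (right panel in %, by decile of AtSMOS1 fold enrichment from low to high). Bars are shares and error bars exact 95% confidence intervals. The share reaches 83.6% in the highest SCL28 quartile and 18.2% in the highest AtSMOS1 decile. The left panel also requires an SCL28 replicate 2 peak and the right panel does not, so the panels are not on the same footing.

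Seen from AtSMOS1, only a minority of even the strongest replicate 1 peaks had an SCL28 peak. In the highest decile of AtSMOS1 replicate 1 peaks, 99 of 544 (18.2%, CI 15.04 to 21.7%) overlapped an SCL28 replicate 1 peak, against 8.36% in the decile below it and 2.53% in the lowest decile. In replicate 2 the highest decile had 91 of 686 (13.3%, CI 10.8 to 16.0%) and the lowest 1.30%. Overlap with SCL28 also differed by the 10 bp motif in the 200 bp around the AtSMOS1 summit. The study found the parent motif within peaks common to both proteins in these libraries. This difference is therefore not independent of the motif's origin and is a description. With the motif, 118 of 174 AtSMOS1 replicate 1 peaks (67.8%, CI 60.3 to 74.7%) overlapped an SCL28 peak, against 186 of 5264 (3.53%, CI 3.05 to 4.07%) without it. Within the highest decile it was 38 of 39 with the motif (97.4%, CI 86.5 to 99.9%) and 61 of 505 without it (12.1%, CI 9.37 to 15.2%).

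Enrichment of the proteins was then compared site by site. For each site, the log2 fold enrichment in each list was set relative to the median of that list over the 215 sites, and SCL28 minus AtSMOS1 was tested with limma over all sites, with Benjamini-Hochberg adjustment and an adjusted p below 0.05. SCL28 was higher at 27 sites (12.6% of the sites tested) and AtSMOS1 at 38 sites (17.7%). At 91 sites (42.3%) the unadjusted p was below 0.05. The direction of a call is relative to the typical shared site. Without this centring, which moves all differences by 0.27 on the log2 scale, SCL28 was higher at 70 sites and AtSMOS1 at 20, so the share of calls with SCL28 higher was 77.8%, against 41.5% with centring.

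The calls rested on few replicates. Without SCL28 replicate 1 there were 9 sites with SCL28 higher, 8 of them among the 27, and 18 with AtSMOS1 higher, and without SCL28 replicate 2 there were 8 and 15. Without AtSMOS1 replicate 1 the counts were 37 and 51, and without AtSMOS1 replicate 2 they were 40 and 47. In an exact two-sided permutation test of a single site, 2 lists against 2 cannot give a p below 0.333. With SCL28 higher, 5 sites were called in every alternative setting of the limma fit that contained them, other than the fit on normal scores of the ranks, which called none. These were AT3G55710, SMR9, LAC2, AT2G04345 and AT4G20430. AT4G20430 was contained in 14 such settings, SMR9 in 13, and AT3G55710, LAC2 and AT2G04345 in 12 each. When peaks had to overlap by 50%, only AT4G20430 of these 5 was still a site, so the others were not put to that setting. Once every peak had to reach a significance of 5 as −log10 q, AT3G55710, LAC2 and AT2G04345 were no sites, so that setting did not cover them. With AtSMOS1 higher, the 7 such sites were AT4G09150, GATL6, AT5G29560, AT1G61740, AT5G06540, WRKY22 and KCS9. AT5G29560 and KCS9 were contained in 13 settings and the rest in 14.

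**Figure D2:**
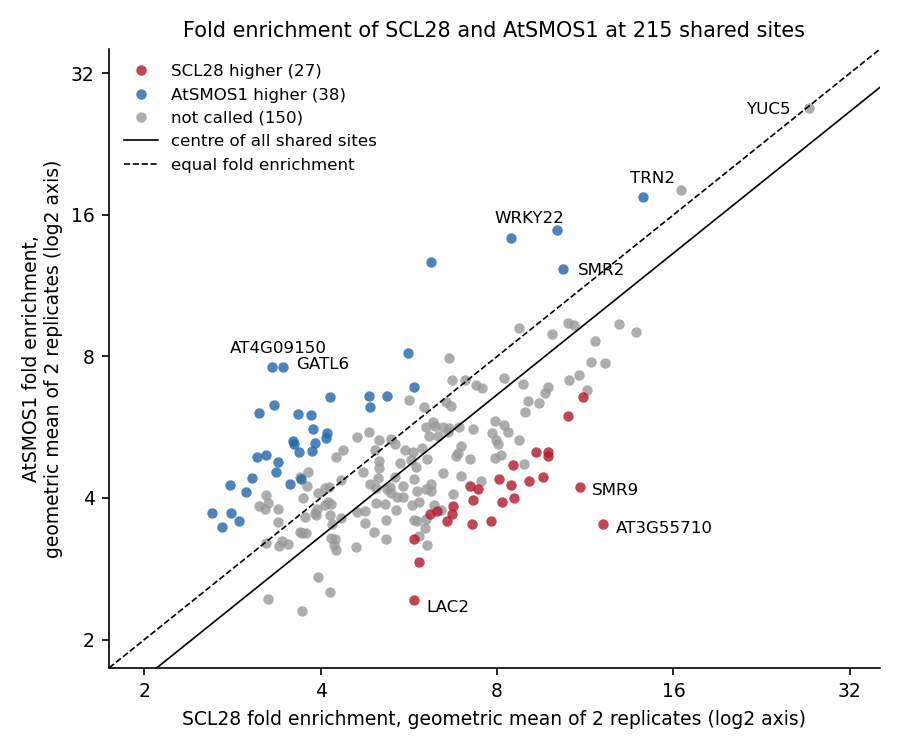
Geometric mean over 2 replicates of the fold enrichment of SCL28 (x axis, log2 scale) and AtSMOS1 (y axis, log2 scale) at the 215 shared sites, coloured by the limma call. The solid line is the centre of all sites, shifted by 0.27 on the log2 scale from equal enrichment (dashed line); the 27 sites with SCL28 higher lie below the lines and the 38 sites with AtSMOS1 higher above the solid line.

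The sites with SCL28 higher had strong SCL28 and ordinary AtSMOS1 peaks. The calls were made on these same values, so the levels describe the called sites and carry no test. Over these 27 sites, SCL28 fold enrichment ranged from 5.56 to 12.8 in replicate 1 and from 5.71 to 11.5 in replicate 2, and that of AtSMOS1 from 2.49 to 6.52 and from 1.94 to 6.59. The largest difference was at AT3G55710, which encodes a UDP-glycosyltransferase, an enzyme class that adds sugars to small molecules (chr3:20673447-20673908, summit in an untranslated exon). SCL28 fold enrichment was 12.8 and 11.5 there, and AtSMOS1 had 3.25 and 3.80. Both SCL28 values were thus over both AtSMOS1 values of this site, and the difference was 1.52 on the log2 scale (SE 0.17, limma adjusted p = 0.00224).

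SMR9, a CDK inhibitor gene, came next among the sites with the smallest p values. Its site lay 278 bp downstream of the gene end (chr1:19042428-19043138). SCL28 fold enrichment was 11.7 and 10.5, and that of AtSMOS1 was 4.73 and 3.78 (log2 difference 1.12, SE 0.17, limma adjusted p = 0.00967). AT2G04345 gives a long noncoding RNA. At its site SCL28 had 7.97 and 7.65 and AtSMOS1 3.57 and 3.58 (log2 difference 0.86, SE 0.15, limma adjusted p = 0.0124). The site 26 bp upstream of AT4G20430, a subtilase gene (a serine protease), had 8.67 and 8.45 for SCL28, and 4.28 and 3.73 for AtSMOS1 (log2 difference 0.83). AT1G06023, another long noncoding RNA gene, had 8.56 and 8.37 for SCL28 and 4.43 and 4.10 for AtSMOS1 (log2 difference 0.72). These sites were picked by their p values, so close replicates and a gap between the proteins were part of the choice.

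The sites with AtSMOS1 higher, described by the same values that made the calls, were mostly weak SCL28 peaks. Over the 38 sites, the median SCL28 fold enrichment was 3.56 and 3.74 in replicates 1 and 2, and that of AtSMOS1 was 5.63 and 5.89, and only 8 of the 38 had a mean SCL28 fold enrichment of at least 5. The sites with the smallest p values lay in untranslated exons at the far end of their genes. AT4G09150, annotated as a T-complex protein 11 (chr4:5833447-5833727), had 3.17 and 3.44 for SCL28 and 8.27 and 6.95 for AtSMOS1 (log2 difference -1.47, SE 0.16, limma adjusted p = 0.00224). GATL6, from a family of galacturonosyltransferase-like genes tied to cell wall polysaccharides (chr4:945338-945607), had 3.22 and 3.69 for SCL28 and 8.13 and 7.104 for AtSMOS1 (log2 difference -1.41, SE 0.16, same adjusted p). AtSMOS1 was over SCL28 in every pair of lists at both sites, which were picked by their p values.

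Other sites of this kind were near genes of varied function. AT1G61740, annotated as a sulfite exporter family protein, had the site in an intron, with 2.68 and 3.68 for SCL28 and 5.81 and 6.35 for AtSMOS1. AT5G06540 encodes a pentatricopeptide repeat protein, a family that acts on organelle RNA, and had 3.11 and 3.57 for SCL28 and 5.52 and 7.21 for AtSMOS1. KCS9, a 3-ketoacyl-CoA synthase that elongates very-long-chain fatty acids, had 4.23 and 4.06 for SCL28 and 6.53 and 6.60 for AtSMOS1. The log2 differences were -1.22, -1.19 and -0.93, each with a limma adjusted p of 0.00967.

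Some strong SCL28 sites were also called with AtSMOS1 higher. WRKY22, a transcription factor of defence responses named here after its values were seen, had a site 1043 bp upstream of the TSS with 8.37 and 8.57 for SCL28, and 13.0 and 15.7 for AtSMOS1 (log2 difference -1.03, SE 0.17, limma adjusted p = 0.00983). AT5G29560, a caleosin-related gene also named after its values were seen, had its site 5346 bp beyond the gene end. SCL28 had 7.08 and 5.35 there and AtSMOS1 16.4 and 9.84, so the replicates of AtSMOS1 lay further apart than at WRKY22 (log2 difference -1.32, SE 0.26, limma adjusted p = 0.0161).

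The site between EMB2654 and AtSMOS1 lay 281 bp upstream of the AtSMOS1 TSS (chr2:17403070-17403597). SCL28 had 10.2 and 10.1 and AtSMOS1 15.2 and 14.5 (log2 difference -0.82, SE 0.14, limma adjusted p = 0.0134). The AtSMOS1 transgene carries this promoter DNA, so that the AtSMOS1-GFP line holds extra copies of it, and their part in the difference was not tested. No shared site was at SCL28 or RPS5A.

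The site at YUC5, an auxin biosynthesis gene, was the highest peak of all 4 lists. Its SCL28 fold enrichment was 33.2 and 22.3 and that of AtSMOS1 25.04 and 29.1, which overlap (log2 difference -0.26, 95% interval -0.78 to 0.26, limma adjusted p = 0.408). Of the other 4 sites with the highest mean percentile over the lists, TRN2, a tetraspanin gene of leaf patterning, was called with AtSMOS1 higher (SCL28 15.5 and 13.0, AtSMOS1 19.6 and 15.5, log2 difference -0.57, limma adjusted p = 0.0488), a call that was lost without centring. AT4G09160 (SCL28 16.8 and 16.2, AtSMOS1 18.7 and 17.5), AT1G18470 and AT5G48790 were not called, with log2 differences of -0.40, 0.19 and 0.35. A missed threshold does not show equal enrichment, and the 95% interval at AT1G18470 was -0.22 to 0.59.

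**Figure D3:**
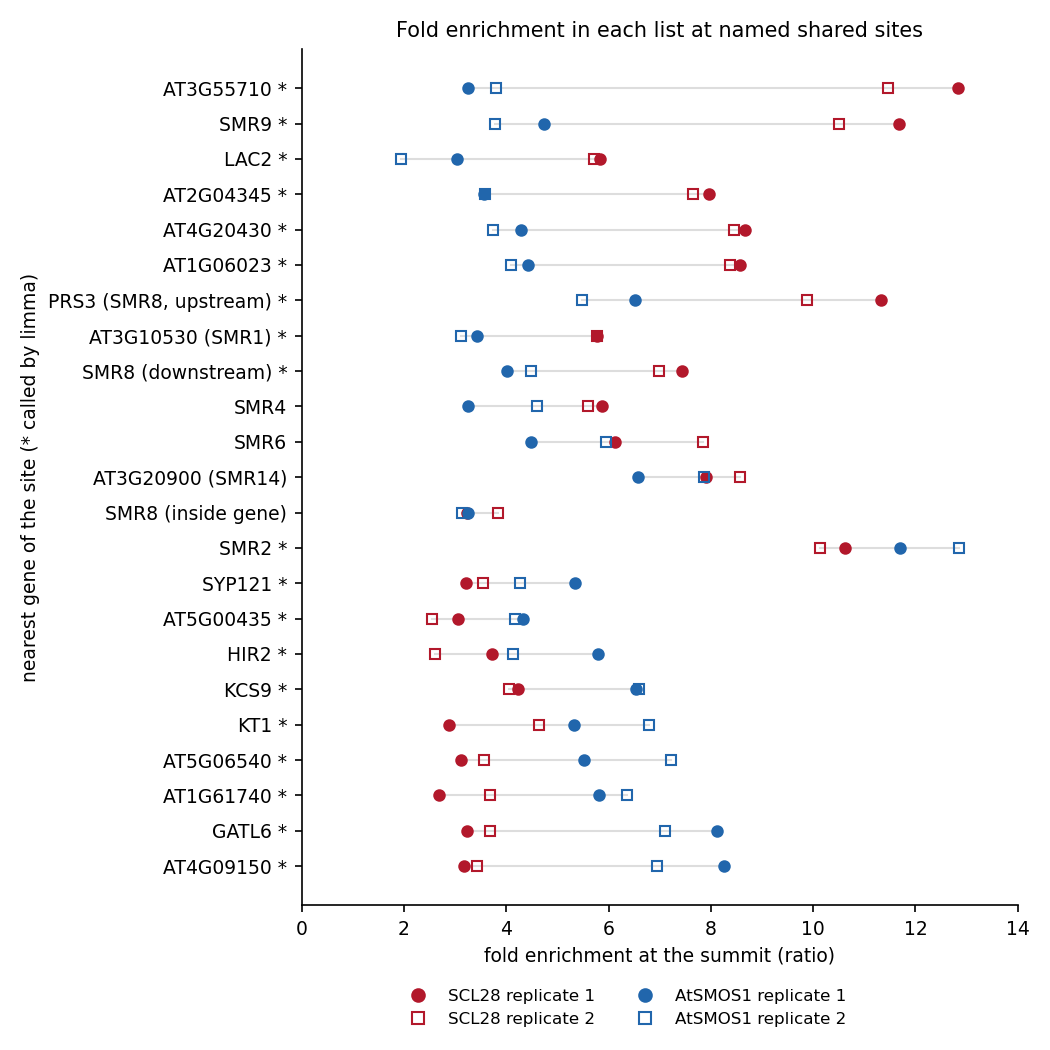
Fold enrichment (x axis, ratio at the summit) in each of the 4 ChIP lists at the SMR sites and the sites with the smallest p values or the largest rank differences (y axis, nearest gene, asterisk for a limma call). Circles are replicate 1 and squares replicate 2; SCL28 has the higher values from AT3G55710 down to AT3G10530 and the downstream site of SMR8, and AtSMOS1 from SMR2 down to AT4G09150.

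The SMR family held sites of every kind. The search covered SIM and SMR1 to SMR15, and SMR16 was not searched. Of these 16 genes, 7 had a shared site within 3 kb, 9 sites in all, and none of the 7 KRP genes, which encode another class of CDK inhibitors, had 1. SCL28 was higher at 4 of the 9 sites and AtSMOS1 at 1, with 12.6% and 17.7% of all shared sites as the background. Besides SMR9, SCL28 was higher at the site 2276 bp upstream of SMR1, whose nearest gene is AT3G10530 (SCL28 5.78 and 5.78, AtSMOS1 3.42 and 3.12, log2 difference 0.55, SE 0.15, limma adjusted p = 0.0315). The family therefore does not share a single balance of the proteins.

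SMR8 had 3 shared sites, the most of any listed gene. At its upstream site, 2165 bp from the TSS and nearest to PRS3, SCL28 had 11.3 and 9.89 and AtSMOS1 6.52 and 5.48 (log2 difference 0.55, SE 0.16, limma adjusted p = 0.0439). At the site 774 bp downstream of the gene SCL28 had 7.43 and 6.99 and AtSMOS1 4.02 and 4.48 (log2 difference 0.49, limma adjusted p = 0.0488). Within the gene the values were 3.23 and 3.84 for SCL28 and 3.26 and 3.13 for AtSMOS1, which overlap (log2 difference -0.13, 95% interval -0.50 to 0.24). The inner site was the weakest of the 3 for both proteins.

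SMR2 was the SMR gene with AtSMOS1 higher. Its site 223 bp upstream of the TSS had 10.6 and 10.1 for SCL28 and 11.7 and 12.9 for AtSMOS1 (log2 difference -0.51, SE 0.15, limma adjusted p = 0.0444). The call was lost without centring, where the difference was -0.24 (limma adjusted p = 0.255). Normal scores aside, the alternatives that contained the site kept the call in 7 of 14 for SMR2, in 7 of 13 for the downstream and 9 of 13 for the upstream site of SMR8, in 10 of 13 for the SMR1 site and in 13 of 13 for SMR9. SMR14 was not called despite its resemblance in sequence to SMR9: its site had 7.91 and 8.56 for SCL28 and 6.58 and 7.86 for AtSMOS1 (log2 difference -0.08, 95% interval -0.46 to 0.31). SMR4 (SCL28 5.87 and 5.60, AtSMOS1 3.24 and 4.59) and SMR6 (SCL28 6.12 and 7.85, AtSMOS1 4.49 and 5.95) were not called either, with 95% intervals of -0.18 to 0.78 and -0.33 to 0.63. The SMR4 site was 1 of the 2 shared sites that overlapped a peak of the input.

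Ranks gave a more lopsided count. The percentile of a peak is its place by fold enrichment among all peaks of its list, with 100 for the highest. Shared sites had median percentiles of 73.2 and 66.4 in the SCL28 lists and 82.8 and 86.4 in the far longer AtSMOS1 lists. A difference of at least 30 percentile points in both replicates was found with SCL28 higher at 2 sites (0.930%) and with AtSMOS1 higher at 28 sites (13.0%). Ranked among the 215 sites alone, the same limit gave 19 sites with SCL28 higher (8.84%) and 15 with AtSMOS1 higher (6.98%), so the imbalance followed the lists in which the ranks were taken. These classes were chosen by the values and carry no test. In replicate 1 alone the limit was passed at 25 sites with SCL28 higher and 35 with AtSMOS1 higher, and in replicate 2 alone, whose peak names are exchanged, at 5 and 59.

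The 2 sites ranked far higher by SCL28 were LAC2 and the SMR1 site. LAC2, a laccase gene from the family that polymerises lignin, had its site 66 bp beyond the gene end, at percentiles of 75.8 and 67.7 for SCL28 and 17.9 and 0.476 for AtSMOS1. Its fold enrichment was 5.84 and 5.71 for SCL28 and 3.04 and 1.94 for AtSMOS1 (log2 difference 0.98, limma adjusted p = 0.0208). Between the summits of the proteins there were 295 bp in replicate 1 and 27 bp in replicate 2. The SMR1 site was just inside the limit, with differences of 37.8 and 30.3 points. AT3G55710 was just outside it, with 71.2 and 29.9 points, and AT2G04345 with 46.0 and 26.2.

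With AtSMOS1 higher, the largest mean differences were at AT1G61740, AT4G09150, AT5G06540 and GATL6, which also had small limma p values, and at 4 further sites. AT5G00435, a noncoding RNA gene, was at percentiles of 19.1 and 1.01 for SCL28 and 73.7 and 79.4 for AtSMOS1. HIR2, a membrane protein gene of the hypersensitive response, was at 42.8 and 1.52 for SCL28 and 94.95 and 77.6 for AtSMOS1. KT1, the potassium channel gene also known as AKT1, was at 11.1 and 52.3 for SCL28 and 91.8 and 98.5 for AtSMOS1. SYP121, a syntaxin gene of secretion at the plasma membrane, was at 24.7 and 23.7 for SCL28 and 91.9 and 81.1 for AtSMOS1. Just inside the limit were IAA2 (-30.6 and -62.0 points) and AT5G64420 (-54.0 and -30.7), and just outside it AT2G41930 (-29.1 and -46.2) and AT5G25280 (-28.1 and -47.0). IAA2 encodes an Aux/IAA repressor of auxin response and had 3.56 and 3.53 for SCL28 and 4.11 and 4.48 for AtSMOS1 (log2 difference -0.55, limma adjusted p = 0.0346).

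The 10 bp motif was more frequent at sites with SCL28 higher than at sites with AtSMOS1 higher. It was found in the 200 bp around the SCL28 replicate 1 summit at 22 of 27 sites with SCL28 higher (81.5%, CI 61.9 to 93.7%), at 9 of 38 with AtSMOS1 higher (23.7%, CI 11.4 to 40.2%) and at 102 of 150 that were not called (68.0%, CI 59.9 to 75.4%). These intervals cover counting error only, the classes were chosen by the enrichment values, and the contrast was not tested. Over all shared sites it was 133 of 215 (61.9%), against 121 of 273 other SCL28 replicate 1 peaks (44.3%), 3.20% of AtSMOS1 replicate 1 peaks, 1.65% of input peaks and 1.51% of all 595730 windows of this length on the 5 chromosomes. The shares for the 12 bp motif were 13 of 27 with SCL28 higher and 4 of 38 with AtSMOS1 higher (48.1% and 10.5%), and 0.190% of the windows.

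**Figure D4:**
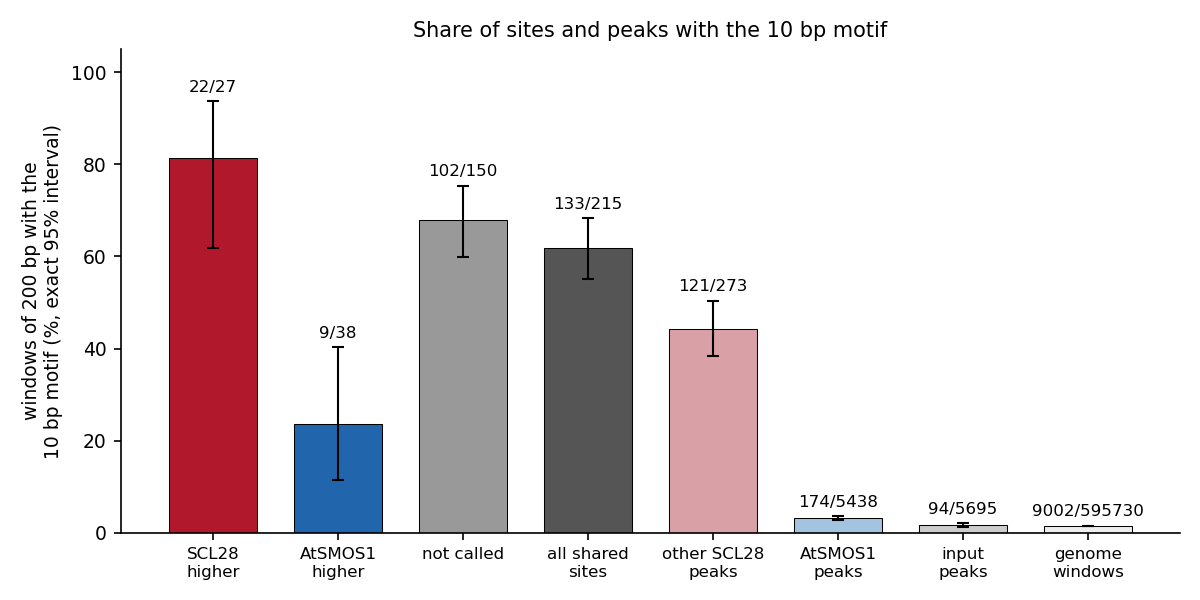
Share of 200 bp windows that hold the 10 bp motif (y axis, %), around the SCL28 replicate 1 summit for shared sites by limma call, for all shared sites and for other SCL28 replicate 1 peaks, around the own summit for AtSMOS1 replicate 1 and input peaks, and in all windows of the genome. Error bars are exact 95% confidence intervals and the counts stand over the bars; the share is 81.5% at sites with SCL28 higher and 23.7% at sites with AtSMOS1 higher.

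SCL28 enrichment itself differed between these classes, since all 27 sites with SCL28 higher but 8 of the 38 with AtSMOS1 higher had a mean SCL28 fold enrichment of at least 5. Above that value the motif was at 22 of 27 and 1 of 8 sites (81.5%, and 12.5% with a CI of 0.316 to 52.7%). The part of SCL28 peak strength in the contrast was not tested further. In the window around the AtSMOS1 summit it was at 19 of 27 and 5 of 38 sites (70.4% and 13.2%). With the classes of ranks among the sites it was at 18 of 19 with SCL28 higher and 4 of 15 with AtSMOS1 higher. The 5 sites with SCL28 higher and no match included AT4G20430 and both called sites at SMR8.

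The number of copies followed the difference. The median log2 difference was 0.60 at the 6 sites with 2 or more copies, 0.17 at the 127 sites with 1 copy and -0.36 at the 82 sites without a copy. Median SCL28 fold enrichment was 6.91 and 7.52, 6.27 and 6.22, and 4.46 and 4.37 in the same order. That of AtSMOS1 was 4.38 and 3.96, 4.66 and 4.52, and 4.78 and 4.60. SCL28 enrichment thus differed between the classes by more than AtSMOS1 enrichment did. Of the 6 sites with 2 or more copies, 4 were called with SCL28 higher, AT1G05067, AT2G04345, AT4G09649 and AT4G09175, and 1 with AtSMOS1 higher, GAE1, a gene of pectin precursor synthesis. These 5 sites were named after their values were seen, apart from AT2G04345.

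**Figure D5:**
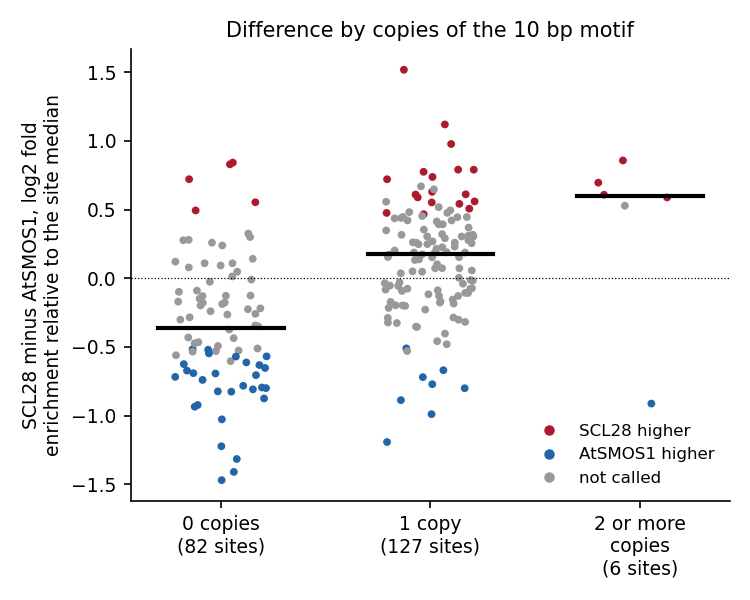
SCL28 minus AtSMOS1 log2 fold enrichment relative to the median site (y axis) at each of the 215 shared sites, by copies of the 10 bp motif in 200 bp around the SCL28 replicate 1 summit (x axis). Points are sites coloured by limma call and bars are medians, which are -0.36, 0.17 and 0.60 for 0, 1 and 2 or more copies.

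The distance of the summits from the motif was bounded by the search, which covered 200 bp around the SCL28 replicate 1 summit and so favours short distances for SCL28. At the 127 sites with 1 copy, the median distance from the motif centre was 21 bp in both SCL28 replicates, and 37 and 43 bp in the AtSMOS1 replicates. Summits of the proteins were 32 and 20 bp apart (medians in replicates 1 and 2) at sites with SCL28 higher, 46 and 54 bp at sites with AtSMOS1 higher and 39.5 and 37.5 bp at the other sites. Quartiles overlapped widely, with 15.5 to 68 bp at sites with SCL28 higher and 24.5 to 101 bp at sites with AtSMOS1 higher in replicate 1.

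Other promoter elements did not divide the sites in this way. The G-box CACGTG was at 1 of 27 sites with SCL28 higher, 2 of 38 with AtSMOS1 higher and 24 of 150 not called, against 14.03% of AtSMOS1 replicate 1 peaks and 2.19% of the windows. The site II element TGGGCC was at 2, 3 and 13 sites of these classes (3.05% of the windows) and the GAGA repeat, GA 4 times in a row, at 1, 3 and 13 (3.17%). The telo-box (AAACCC followed by TA) was at 1 shared site (2.62% of the windows) and the E2F element (TTCCC followed by GCC) at 0 of 215, which allows a share of up to 1.70% by the exact interval (0.352% of the windows). These matches are a description of the letters in the windows.

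The intervals of the position shares overlapped between the classes. Of all shared sites, 100 of 215 (46.5%, CI 39.7 to 53.4%) had the SCL28 summit within 1 kb upstream of a TSS, 44 inside a gene and 33 within 1 kb downstream of a gene end. The promoter share was 10 of 27 (37.0%, CI 19.4 to 57.6%) with SCL28 higher, 14 of 38 (36.8%, CI 21.8 to 54.0%) with AtSMOS1 higher and 76 of 150 (50.7%, CI 42.4 to 58.9%) for the rest. Inside genes lay 4 of 27 and 10 of 38 (14.8%, CI 4.19 to 33.7%, and 26.3%, CI 13.4 to 43.1%). The median GC content of the windows was 34.5% with SCL28 higher and 34.0% with AtSMOS1 higher, and the nearest gene was protein-coding at 21 of 27 and 32 of 38 sites.

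Among the nearest genes, transcription regulators by product name were 20 of 210 (9.52%, against 5.71% of the 33056 annotated genes). Of the 27 genes with SCL28 higher, 0 were in this group, which by the exact interval allows up to 12.8%, and 4 were among the 38 with AtSMOS1 higher, namely WRKY22, MYB64, GRF5 and AT4G16141. MYB64, a regulator of the female gametophyte, had its site 1521 bp beyond the gene end (SCL28 3.75 and 4.06, AtSMOS1 4.61 and 5.95, log2 difference -0.69, limma adjusted p = 0.0301). GRF5, which promotes leaf growth, had its site 600 bp beyond the gene end (SCL28 3.57 and 3.84, AtSMOS1 4.79 and 4.02, log2 difference -0.52, limma adjusted p = 0.0448). AT4G16141, a GATA type zinc finger gene named after its values were seen, had a log2 difference of -0.52. Protein kinases and phosphatases by product name, a group that takes in the CDK inhibitors, were 23 of 210 (10.95%, against 5.09%), 4 of 27 with SCL28 higher and 5 of 38 with AtSMOS1 higher. Genes of the auxin group were 3 of 210 (IAA2, YUC5 and AT2G33830), and cell cycle and cytoskeleton genes 9 of 210 (4.29%, against 1.62%), 2 of 27 with SCL28 higher and 3 of 38 with AtSMOS1 higher. No enrichment test was made on these counts.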

How the data were processed

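Each of the 5 samples has its own list of peaks as deposited, made by the authors without pooling replicates and with a q value cutoff of 0.05. According to the submitters' processing notes, Trimmomatic 0.38, Bowtie2 2.3.5, SAMtools 1.9, MACS2 2.2.7.1 and deepTools were used with TAIR10. The study describes the aligner and the peak settings in different ways in its text and its reporting summary, and the control of the input list is not given in the sources used here. The fold enrichment is a ratio computed by the authors' peak caller at the summit over local background, and because it is relative to the input a site with high input gives a low value. Significance in the deposited lists is given as −log10 p and as −log10 q, of which −log10 q served in alternatives. The deposited score is derived from the q value and was not used, and the summit offsets were used as deposited.

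From these values, the highest overlapping peak of each list was taken per site, ranked within its list, and tested as log2 fold enrichment centred at the list's median over the sites, with limma 3.58.1 in R 4.3.3 (2 lists against 2, no block). No pseudocount was needed. On simulated data, the fit recovered 37 of 40 sites changed by 1 on the log2 scale among 215 sites. It called 0 of 175 unchanged sites. The simulated noise had the same spread at all sites of a protein, so differences in spread between real sites were not covered. Other steps used python 3.11.15, numpy 2.4.6, scipy 1.17.1 and matplotlib 3.10.9. Peaks on organelle genomes were left out. Nearest genes came from the 33056 genes of the TAIR10.1 annotation, pseudogenes excluded, whose chromosome lengths hold every peak. The input entered as the caller's control and as a list of peaks.

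The sites, gene lists and keyword groups were chosen with earlier results of these data known. Genes were named if they were nearest to the 8 sites with the largest mean rank difference per direction, the 5 with the smallest limma p per direction, the 5 with the highest mean percentile, a site within 3 kb of a SIM/SMR or KRP gene, at the transgene genes or YUC5, the 2 sites on each side of the rank limit, or a transcription or auxin gene in a rank class. Alternatives changed the overlap, the site set, the q cutoff, the scale, the centring, the block, the replicates, the rank limit, the motif, its window and the promoter length.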

Additional observations from a re-analysis of the deposited data

How the results depend on the processing

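Counts of calls depended strongly on the processing, while no call of the reported fit changed sign in any alternative. SCL28-higher and AtSMOS1-higher calls numbered 5 and 8 when peaks had to overlap by 50% (131 sites). Of the reported calls, 5 of 27 with SCL28 higher were among the 131 sites, and these 5 kept the call. With AtSMOS1 higher it was 27 of 38, of which 8 kept the call. The counts were 8 and 12 after quantile normalization, and 70 and 20 without centring. With limma on normal scores of the ranks they were 0 and 0 (36 and 41 at an unadjusted p below 0.05). Leaving out 1 list gave 8 to 40 and 15 to 51 calls, where a lone list is assumed to vary like the others. With the replicate number as a block there were 7 and 15 calls; same-numbered lists did not deviate together (correlation of their deviations 0.038 over 215 sites), so the numbers were not taken to pair the samples. Rank classes with SCL28 and AtSMOS1 higher (2 and 28 sites) held 5 and 48, 1 and 18, and 1 and 8 sites at 20, 40 and 50 points, and 19 and 15 when ranked among the sites. SCL28-higher ranks were 1 with a 50% overlap, 0 once every peak had to reach a −log10 q of 5, and 4 when ranked by −log10 q. A single replicate gave 5 to 25 sites with SCL28 and 35 to 59 with AtSMOS1 higher. The mean Spearman correlation of same-numbered lists (0.447) was 0.561 with a 50% overlap, 0.452 at a −log10 q of 5 or more, 0.439 without sites nearest to transgene genes and YUC5, 0.432 without sites within 3 kb of them (chosen after seeing the data), 0.449 with sites defined by SCL28 replicate 2, 0.443 for SCL28 replicate 2 with AtSMOS1 replicate 1 and 0.541 as Pearson's r; single replicates gave 0.446 to 0.447. By limma call, in alternatives chosen after seeing the data, the motif share was 48.1% and 10.5% with the 12 bp form, and 94.7% with SCL28 higher among the sites. Within 2 kb of a TSS lay 60.7% of the sites ranked higher by AtSMOS1, against 32.1% within 1 kb. For the 33 named sites, 390 of 473 values kept their side of the threshold, 75 lost it and 8 crossed it. Why these values moved was not tested, other than the smaller number of sites under stricter cutoffs. The lists hold no counts per site, and the stated read totals of the libraries were not used, so depth was not weighed. Peaks under the authors' cutoff are not seen.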

Other observations

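Shared sites that lie close together can differ in balance. There were 18 pairs of sites with summits within 5 kb of each other, all described after their values were seen. In 1 pair both sites were called, in opposite directions: the site beyond the end of GRF5, with AtSMOS1 higher (log2 difference -0.52), lay 2237 bp from the site beyond the end of APG12B, a gene of the autophagy conjugation system, with SCL28 higher (log2 difference 0.51, SCL28 11.5 and 10.9, AtSMOS1 6.50 and 6.59). The motif was at the APG12B site and not in the window at the GRF5 site. Normal scores aside, the alternatives kept the call in 7 of 14 for the GRF5 site and in 10 of 14 for the APG12B site. At RTFL21, which encodes a small peptide of the ROTUNDIFOLIA family, a site with AtSMOS1 higher (SCL28 2.88 and 2.92, AtSMOS1 3.61 and 3.53, log2 difference -0.57) lay 1647 bp from a site with 2 copies of the motif that was not called (SCL28 5.50 and 6.57, AtSMOS1 3.05 and 3.92, log2 difference 0.53, limma adjusted p = 0.067). At AT3G60520 a site with AtSMOS1 higher (SCL28 3.01 and 3.75, AtSMOS1 5.06 and 4.08, log2 difference -0.71) lay 701 bp from a stronger site that was not called (SCL28 8.24 and 7.62, AtSMOS1 5.54 and 4.25, log2 difference 0.44). WRKY22 and AT4G01245, 1207 bp apart, both had AtSMOS1 higher (log2 differences -1.03 and -0.81).

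The exact forms of the 10 bp motif differed in frequency at the sites, and their frequency in the genome was not counted. At the 215 sites the most frequent was CATTGGATTC, at 25 sites, of which 6 had SCL28 higher and 2 had AtSMOS1 higher. CTTTGGATTC was at 16 sites (2 and 0), CATAGGATTC at 12 sites (3 and 0) and CATTGGATCC at 12 sites (1 and 1). For comparison, over all 133 sites with the motif there were 22 with SCL28 higher and 9 with AtSMOS1 higher, and no form was tested against the others. The first form is the one shown above for SMR9, SMR14 and LAC2, and the third for AT3G55710 and the SMR1 site.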
